A study of Bos taurus with 29 samples.

Results

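A set of 240 transcripts was abundant in the luminal epithelium (LE), the glandular epithelium (GE) and the stroma (ST) of the cow endometrium alike, out of 37925 transcripts measured. The members were chosen by their level in TPM, the relative abundance of transcripts, a value in which the reads of a transcript are divided by its effective length and scaled to a fixed total per sample, so that levels can be compared between transcripts. Each member reached at least 100 TPM in every sample and a mean of at least 500 TPM in the cows with low progesterone (P4low) in each cell type, and the highest of these 3 means was less than 5 times the lowest. They made up 0.633% of all transcripts. The levels and ratios in P4low cows were therefore fixed in part by the choice itself and are given as a description without a test. Of the contrast between cows with high and low progesterone (P4), the P4low arm was chosen for high levels, while samples with high P4 only had to reach the floor of 100 TPM. The choice by P4low means thus favours estimates that are lower in cows with high P4. The floor acts the other way, since it leaves out transcripts that fall below it in a P4high sample.

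Transcripts that are abundant in every cell of a tissue mostly serve functions that every cell needs, such as building ribosomes, the cytoskeleton and the respiratory chain. Some of them are used as references when other transcripts are measured, which rests on their level being stable. In the endometrium, LE lines the uterine cavity and meets the embryo first, GE secretes the histotroph that nourishes it, and ST forms the connective tissue between the glands. Progesterone, the hormone of the corpus luteum, prepares these compartments for pregnancy.

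RNA was obtained by laser microdissection of frozen biopsies from 13 Holstein cows, taken on day 45 postpartum by the sample labels. The P4high group held 4 cows and gave 1 LE, 3 GE and 3 ST samples, and the P4low group held 9 cows and gave 6 LE, 7 GE and 9 ST samples. The groups were split by plasma P4 at a limit of 1 ng/mL, and all the cows were high-yielding and without clinical endometritis. The cows are numbered here from 1 to 13, and cows 2, 4, 5 and 9 were P4high. By the study's account, P4low cows included both anoestrous and cycling animals, and microdissected ST could hold fibroblasts, immune and endothelial cells, although capture areas were selected to avoid vessels and the cows to limit immune cells. The estimated counts of a sample, which stand for read pairs, summed to 24860445 to 33209181.

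Neither the deposited tables nor the RefSeq table at hand paired the transcripts with genes, and 0 of the 37925 identifiers matched. The members are named by their Ensembl transcript identifier, their functions are not given, and the cell type labels could not be checked against marker genes. The same holds for the epithelial, stromal, leukocyte, endothelial, smooth muscle and red blood cell markers, so RNA from other cells in a sample could not be measured here.

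Few transcripts lay near the floor and the ratio of the rule, and more lay near its mean. The floor of 100 TPM was met in every sample by 697 transcripts, the mean in each cell type by 247, and both by 241. Just inside the floor, ENSBTAT00000005660.6 had 107.7 TPM in its lowest sample. Just outside it, ENSBTAT00000010178.6 had 87.34 TPM in its lowest sample, GE of the P4high cow 4, and at least 247 TPM in every P4low sample. ENSBTAT00000004215.4 had 64.97 TPM in its lowest sample, GE of the P4low cow 12. A further 3 transcripts met the mean and the ratio but were at 0 TPM in at least 1 sample. ENSBTAT00000042554.4, with a lowest mean of 500.4 TPM, was just inside the limit for the mean, and ENSBTAT00000005600.6, with 499.1 TPM, was just outside. The ratio alone removed ENSBTAT00000040084.5, whose means were 5.676-fold apart, while ENSBTAT00000004562.3 entered with 4.529-fold.

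Levels of the members, as the mean of the 3 cell type means in P4low cows, spanned a 16.3-fold range around a median of 1123 TPM. At least 1000 TPM was reached by 135 members, at least 2000 TPM by 41 and at least 5000 TPM by 10. The 10 highest members held 19% of the TPM of the set, and the 50 highest held 48.1%. The median member mean was 1012 TPM in GE, 1090 TPM in LE and 1145 TPM in ST.

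**Figure D1:**
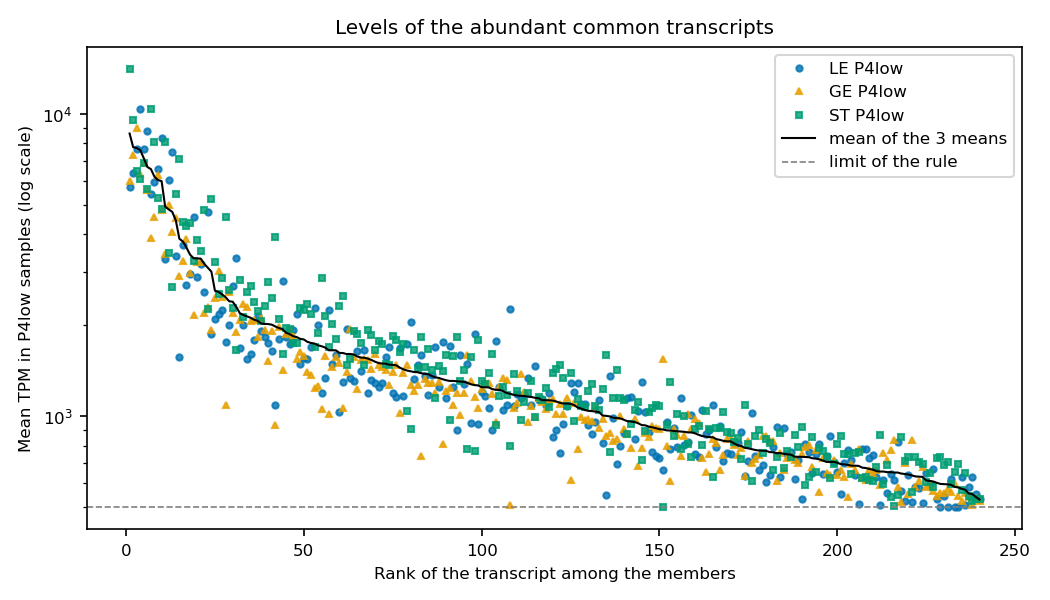
Mean TPM in P4low samples (y axis, log scale) of the 240 members, ranked by the mean of their 3 cell type means (x axis). Points are the means in LE (6 samples), GE (7) and ST (9), the line is the mean of the 3 means and the dashed line is the limit of 500 TPM. The line falls 16.3-fold from the first to the last member, and the 3 cell types lie close together at most ranks.

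The most abundant member, ENSBTAT00000024387.5 (844 bases), was led by ST. Its TPM in P4low cows ranged from 3901 to 9632 in LE (median 5269), from 4275 to 9648 in GE (median 5724) and from 8642 to 21455 in ST (median 14541). ST and the other cell types overlapped only by its lowest ST sample. In P4high cows it had 5129, 5499 and 8432 TPM in GE and 13373, 15489 and 17394 TPM in ST, where the cell types did not overlap.

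ENSBTAT00000014853.5 (1010 bases) was second, with 6412 ± 1785 TPM in LE (SD, n = 6), 7343 ± 1795 in GE (n = 7) and 9589 ± 1782 in ST samples (n = 9). ENSBTAT00000009965.5 (933 bases) followed and was instead highest in GE, at 9010 ± 1974 TPM (SD, n = 7), against 7698 ± 2215 in LE (n = 6) and 6471 ± 2762 in ST samples (n = 9). The sample ranges of the 3 cell types overlapped for both transcripts. ENSBTAT00000060566.1 (781 bases) came next and was highest in LE, at 10372 ± 3402 TPM (SD, n = 6), against 6342 ± 4412 in GE (n = 7) and 6088 ± 1409 in ST samples (n = 9). Of its GE samples, cow 11 had 15697 TPM and the next had 7203 TPM.

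Most members differed little between the cell types of P4low cows. The ratio of the highest to the lowest cell type mean had a median of 1.38. It was under 1.5 in 158 members (65.8%) and under 2 in 212 (88.3%), and 5 members had a ratio of 3 or more. Within a single cow, the ratio lies between single samples and not between means, which by itself raises it, so it is not set against the 1.38. In the 6 P4low cows with all 3 cell types, its median over members ran from 1.37 to 1.88. It was 1.37 in cow 6, 1.51 in cow 13, 1.57 in cow 12, 1.64 in cows 3 and 11, and 1.88 in cow 10. ST was the highest cell type for 133 members, LE for 77 and GE for 30. LE was the lowest for 105 members, GE for 89 and ST for 46. Between LE and GE the members were evenly split, with 121 higher in LE and a median log2 ratio of TPM of 0.00. The median log2 ratio was -0.18 for LE over ST and -0.19 for GE over ST.

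At least a 2-fold ratio was found for 28 members, of which 17 were highest in ST, 9 in LE and 2 in GE. Among those highest in LE, ENSBTAT00000020261.3 (1373 bases) had the largest ratio, 4.45. It ranged from 983 to 3089 TPM in LE (median 2332), from 240 to 993 in GE (median 467) and from 299 to 1490 in ST (median 778). LE overlapped with the other cell types through its lowest sample, cow 13, and within each of the 6 cows with all cell types LE was highest. The LE sample of the P4high cow had 677 TPM, below all LE samples of P4low cows. Second was ENSBTAT00000060549.1 (684 bases), with 7480 ± 2768 TPM in LE (SD, n = 6), 4089 ± 2952 in GE (n = 7) and 2676 ± 717 in ST samples (n = 9), a ratio of 2.80.

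Single cows weighed on both members that were highest in GE with a ratio of at least 2. ENSBTAT00000014476.4 (1577 bases) had a ratio of 3.08, with 258 to 6206 TPM in GE (median 607), 270 to 1554 in LE (median 544) and 298 to 695 in ST (median 500). Cow 10 had 6206 TPM in GE and 1554 TPM in LE, the highest of each. Without cow 10 the ratio was 1.59 and the LE mean was 485 TPM, below the limit of the rule. ENSBTAT00000007324.5 (1952 bases) had a ratio of 2.06, with 1599 ± 697 TPM in GE (SD, n = 7), 1495 ± 766 in LE (n = 6) and 777 ± 251 in ST samples (n = 9). Cow 8 had 3107 TPM in GE and the next GE sample had 1616 TPM. Without cow 8 the ratio was 1.95, and the mean of LE was above that of GE, at 1495 against 1347 TPM.

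Members highest in ST had a median ratio of 1.39, against 1.38 for those highest in LE. The widest ratio and, among the named members, the largest single-sample effect belonged to a member led by ST. ENSBTAT00000004562.3 (2141 bases) ranged from 4422 to 12412 TPM in ST (median 6306), from 1158 to 5814 in GE (median 3129) and from 370 to 6738 in LE (median 543). The LE sample of cow 13 had 6738 TPM and the other LE samples had at most 834 TPM. Without cow 13 the means were 6451 TPM in ST, 2441 in GE and 537 in LE, and the ratio was 12.0, outside the rule. ENSBTAT00000020080.6 (531 bases) had a ratio of 4.19, with 1493 to 9741 TPM in ST (median 4003), 372 to 2521 in GE (median 668) and 228 to 5615 in LE (median 1130). Cow 13 was again the highest sample in LE, and the highest in GE and ST as well. Its LE sample was the highest of the 6 for 12 of the 17 members that were at least 2-fold apart and highest in ST, and for 45 of the other 223 members. These counts rest in part on the choice, since a high LE sample raises the LE mean and lowers the ratio that the rule uses. They were not computed for all transcripts. Without cow 13, 34 members had a ratio of at least 2, 2 had a ratio of at least 5 and 9 had a cell type mean under 500 TPM. Whether the LE sample of cow 13 held ST tissue was not tested, since no marker could be looked up.

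The most even members across the cell types of P4low cows were ENSBTAT00000012920.3 (572 bases) and ENSBTAT00000083507.1 (1576 bases), with ratios of 1.01 and 1.02. The former had 531 ± 127 TPM in LE (SD, n = 6), 526 ± 159 in GE (n = 7) and 531 ± 111 in ST samples (n = 9). It was less even in P4high cows, with 420 ± 32.2 TPM in GE and 311 ± 96 in ST (SD, n = 3 each). Its P4high samples in ST had 200, 359 and 373 TPM, all below the P4low range of 377 to 653 TPM. The latter had 1136 ± 319 TPM in LE, 1145 ± 365 in GE and 1159 ± 285 in ST, and in P4high cows 1073 ± 99.3 in GE and 1123 ± 147 in ST (SD, n = 3 each). In P4low cows, the spread between cows was far larger than the distance between cell types for both transcripts.

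**Figure D2:**
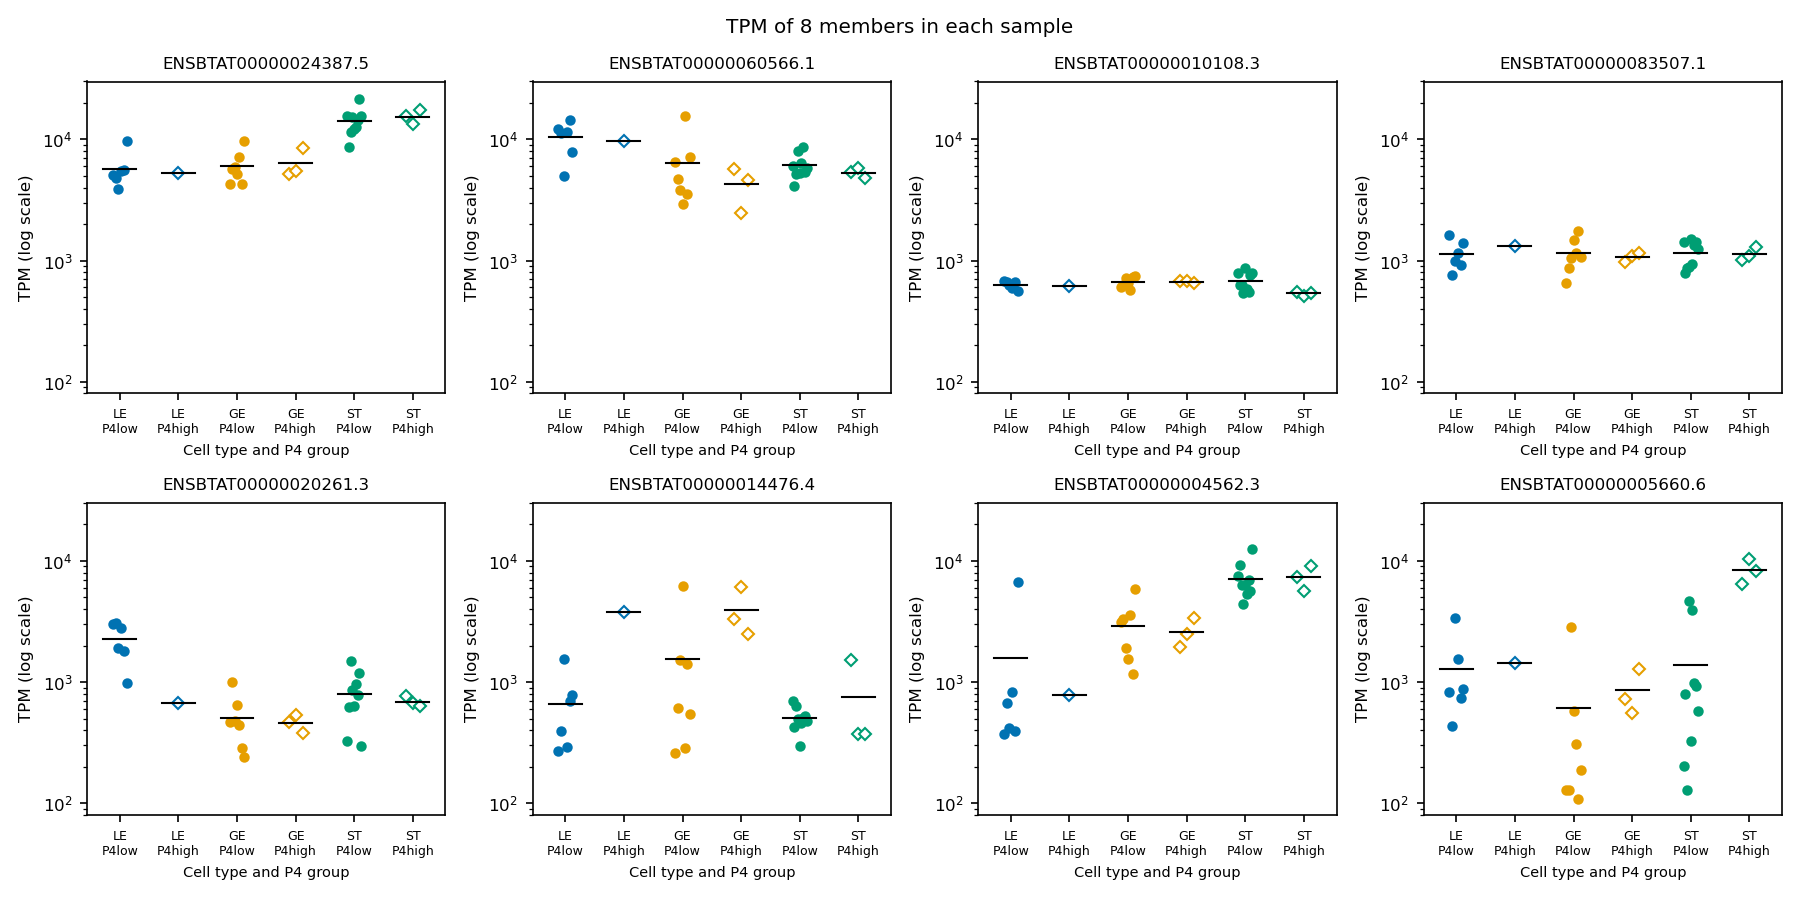
TPM (y axis, log scale) of 8 members in each sample by cell type and P4 group (x axis). Filled circles are P4low and open diamonds P4high samples, and lines are group means. ENSBTAT00000010108.3 stays between 514 and 862 TPM in all samples, while ENSBTAT00000005660.6 spans 108 to 10420 TPM, and a single LE sample of ENSBTAT00000004562.3 lies at 6738 TPM, far above the others.

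A large share of all TPM belonged to the members. In P4low cows they took 36.5% ± 4.02 of all TPM in LE (SD, n = 6), 33.6% ± 6.69 in GE (n = 7) and 41.2% ± 4.6 in ST samples (n = 9). The ranges overlapped, from 29.1% to 40% in LE, 26% to 43.8% in GE and 35.1% to 47.9% in ST. By estimated counts, in which long transcripts weigh more, the share was 19.9% ± 2.46 in LE, 17.7% ± 3.97 in GE and 22.3% ± 3.01 in ST. Cow 13 had the highest share of TPM in GE (43.8%) and ST (47.9%), cow 11 followed in both (41.9% and 47.2%), and cow 10 had the lowest in LE (29.1%) and GE (26%). In P4high cows the share of TPM was 28.7%, 29.2% and 33% in GE, 33%, 35.6% and 38.3% in ST and 32.9% in LE, all within the ranges of P4low cows except the lowest ST sample. In these whole compartments, fewer cells that carry a transcript and less of it per cell cannot be told apart.

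**Figure D3:**
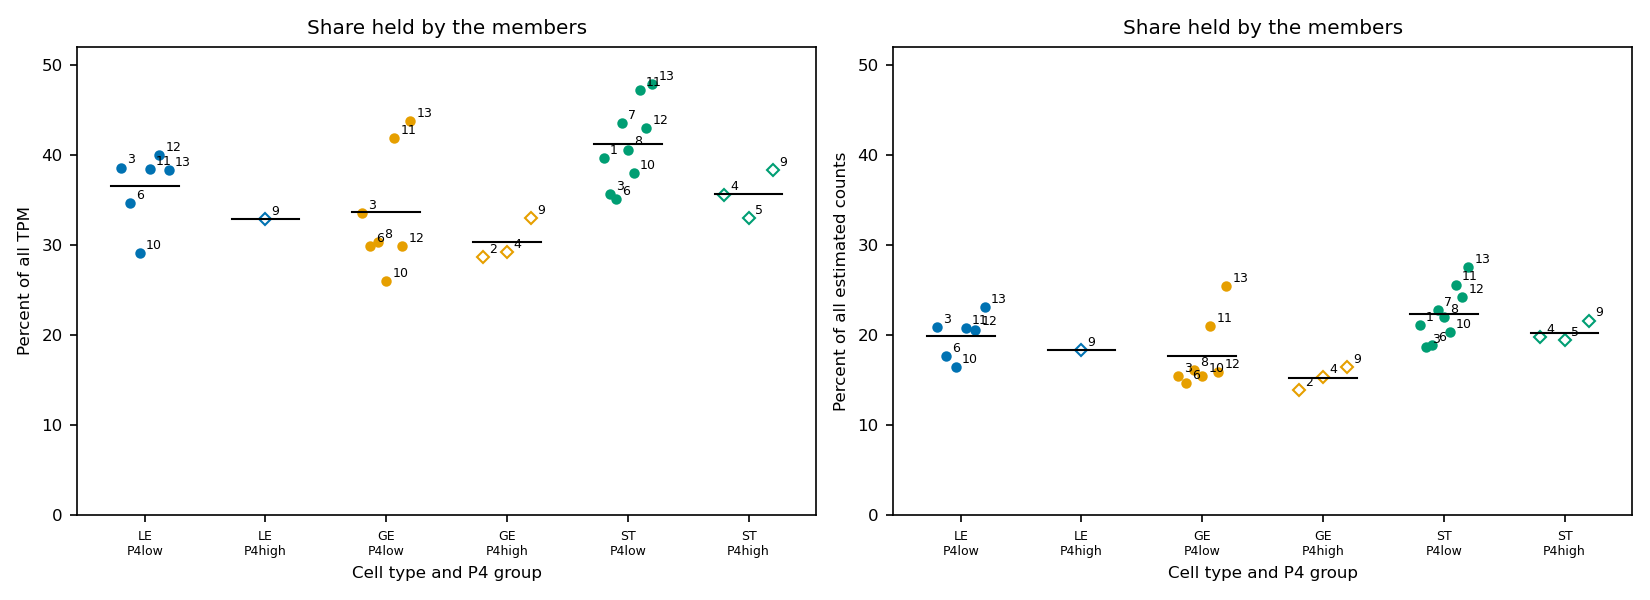
Share of all TPM (left) and of all estimated counts (right) held by the 240 members, in percent, in each sample by cell type and P4 group. Numbers beside the points are cows, filled circles are P4low, open diamonds are P4high, and lines are group means. In GE, cows 11 and 13 lie at 41.9% and 43.8% of TPM while the other P4low samples lie at or below 33.5%.

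The members were short. Their median length was 739 bases, against 2016 bases for all transcripts, and they ranged from 177 to 2634 bases. Of the members, 166 (69.2%) were under 1000 bases, against 19.4% of all transcripts. TPM divides by the effective length, which for short transcripts differed between samples: a transcript of 501 bases had an effective length of 137 to 185 bases, depending on the sample. The share of the set was therefore lower by counts than by TPM.

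A group of 11 members was singled out after the values were seen, by length and identifier. In the RefSeq table, the mitochondrial chromosome carries 13 protein-coding genes, which code for subunits of the respiratory chain and of ATP synthase. For each of these 13 genes, exactly 1 transcript with an identifier number from 60539 to 60577 had the same length, and 11 of these transcripts were members. The match is one of length and not of sequence, so no gene is assigned: 169 transcripts in the whole set, 13 of them members, have one of these lengths. Among the 11 were ENSBTAT00000060566.1 and ENSBTAT00000060549.1 described above, ENSBTAT00000060569.1 (1545 bases), with means of 6057 TPM in LE, 4988 in GE and 3473 in ST, and ENSBTAT00000060553.1 (201 bases), with 8810, 5592 and 5659 TPM. The other 2 of the 13 had a mean below 500 TPM in ST.

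By group means, LE was the highest cell type for 10 of these 11 transcripts and ST for 1, whereas LE was the highest for 67 (29.3%) of the other 229 members. Together they held 5.33% ± 1.86 of all TPM in LE (SD, n = 6), 3.27% ± 2.14 in GE (n = 7) and 2.94% ± 0.691 in ST samples (n = 9) in P4low cows. The LE samples ranged from 2.53% to 7.75% and the ST samples from 2.07% to 3.95%, so that the groups overlapped. Within the 6 cows with all cell types, their share was highest in LE in 3, in GE in 2 and in ST in 1. In GE, cow 11 had 7.64%, above its 5.81% in LE, and cow 13 followed with 3.92%, against 3.85% in LE. In cow 10 the share was 3.11% in ST and 2.53% in LE. In P4high cows the share was 1.24%, 2.33% and 3.01% in GE, 2.21%, 2.63% and 2.7% in ST and 4.7% in LE. The 11 transcripts varied together: over 28 samples, the correlation of their log2 TPM deviations from the group mean had a median of 0.88 and a lowest value of 0.66 among themselves, against a median of 0.27 with the other members. Samples of one cow and values scaled to one total share sources of variation, and the correlations are a description.

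**Figure D4:**
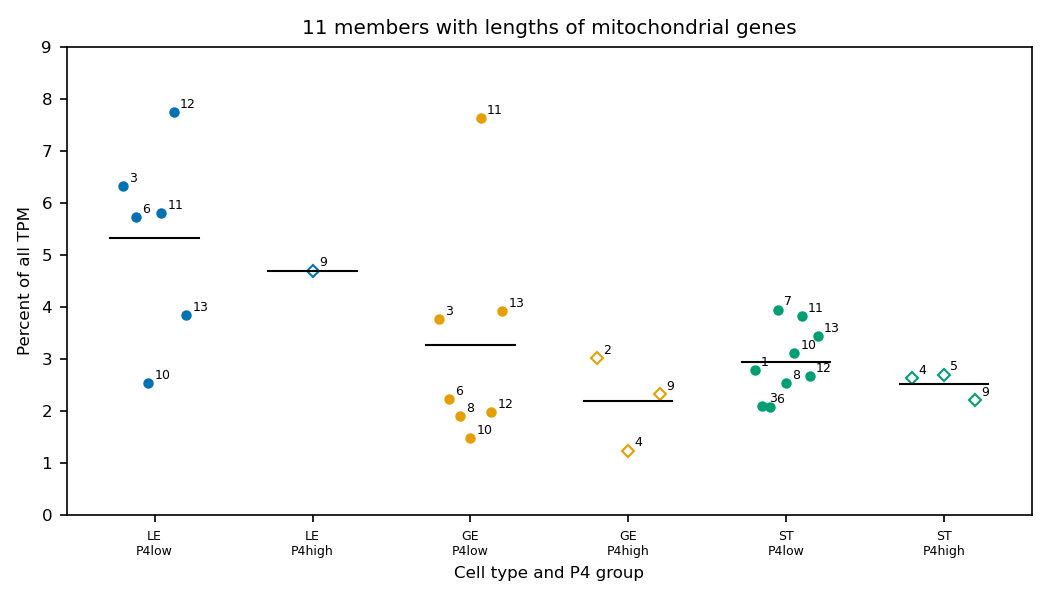
Share of all TPM, in percent, held by the 11 members whose lengths match mitochondrial genes, in each sample by cell type and P4 group. Numbers are cows, filled circles are P4low, open diamonds P4high, and lines are group means. LE samples lie mostly above the other cell types, and the GE sample of cow 11 stands at 7.64%.

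The stability of a member was measured as the standard deviation (SD) of its log2 TPM about the mean of its group. The median over members was 0.44, a factor of 1.36, and it ranged from 0.15 to 1.55. It was under 0.3 for 26 members and at least 0.7 for 17, and at least 1 for 4. All 697 transcripts at or above 100 TPM in every sample had a median of 0.39. The members' median SD was 0.40 in LE, 0.52 in GE and 0.43 in ST of P4low cows, while P4high cows had 0.21 in GE and 0.36 in ST. The highest and the lowest of the 29 samples were 3.99-fold apart for the median member.

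ENSBTAT00000021397.6 (730 bases) and ENSBTAT00000010108.3 (866 bases) had the smallest SD within groups, 0.15 and 0.18. The first had 992 ± 84.2 TPM in GE (SD, n = 7), 996 ± 70.2 in ST samples (n = 9) and 1466 ± 238 in LE (n = 6), and it was thus stable within a cell type but higher in LE. The second stayed between 514 and 862 TPM in all samples, a 1.68-fold range that was the narrowest of the members. Its P4high samples in ST had 514, 540 and 552 TPM, of which the first and second lay below the P4low range of 541 to 862 TPM and the last near its lower end.

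ENSBTAT00000011795.4 (1431 bases) had the largest SD, 1.55, and its level went with the cow. In cow 12 it had 135 TPM in LE, 120 in GE and 109 in ST, and in cow 11 it had 220, 110 and 113 TPM. In cow 6 it had 2322, 1386 and 2072 TPM in the same order, and in cow 10 it had 2557, 1635 and 760 TPM. The cell types of a cow thus lay close together, and cows differed by more than 10-fold. ENSBTAT00000005660.6 (2130 bases) had the second largest SD, 1.44, and the widest span, from 108 to 10420 TPM or 96.8-fold. In P4low cows it ranged from 432 to 3349 TPM in LE, 108 to 2853 in GE and 129 to 4650 in ST.

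Much of the spread of the members was shared by the cell types of a cow. In the 18 samples of the 6 P4low cows with all 3 cell types, the cow accounted for a median of 62.3% of a member's spread about the cell type means, against 33.3% from the degrees of freedom alone if the samples of a cow were unrelated. It reached 96.3% for ENSBTAT00000011795.4 and 84.8% for ENSBTAT00000005660.6, and was 38.5% for the stable ENSBTAT00000021397.6. At least 75% was reached by 53 members. The 697 transcripts above the floor had a median of 64.7%. Over pairs of members, the correlation of the deviations across 28 samples had a median of 0.19. The first principal component took 35.4% of the variance, with loadings of one sign for 192 members (median length 632 bases) and of the other sign for 48 (median length 1365 bases).

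The contrast between P4 groups asks whether the members were stable against the hormone. Since the members had to be high in P4low samples and all tested transcripts did not, the values below are given side by side with those of all tested transcripts as a description, and nothing is read from the balance of lower over higher members. No member passed the test in GE or ST: 0 of 240 had an adjusted p of at most 0.05 in edgeR's quasi-likelihood test, against 0% of all 27480 transcripts tested in GE and 0.178% in ST. The smallest adjusted p of a member in that test was 0.267 in GE and 0.0992 in ST. At an unadjusted p under 0.05 there were 49 members in GE, where 9.31% of all tested transcripts had such a p. Of these, 4 were higher in P4high cows, against 3.28% of all tested, and 45 lower, against 6.04%. In ST there were 116 members, where 10.8% of all tested had such a p. Of these, 5 were higher, against 4.91% of all tested, and 111 lower, against 5.92%. With DESeq2, 6 members were called in GE, against 2.13% of all tested, and all 6 were lower, against 1.74%. In ST it called 9 members, against 1.52% of all tested, 2 of them higher, against 0.582%, and 7 lower, against 0.943%.

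Most point estimates lay on the side that the choice by high P4low means favours. The log2 difference in normalised counts was below 0 for 214 of 240 members in GE and for 221 in ST, against 55.4% and 52.2% of all tested transcripts. Its median over members was -0.63 in GE and -0.79 in ST, and the median over all tested transcripts was -0.09 and -0.04. On the log2(TPM + 1) scale the medians were smaller, at -0.22 in GE and -0.44 in ST, where all tested transcripts had medians of 0.09 and 0.14, and 174 and 194 members were lower. How much of this shift comes from the choice of members was not tested. The comparisons in GE and ST share cows in both P4 groups.

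Single cows weighed on these values. Without cow 13 the median over members in GE was -0.32, and the unadjusted count in GE was 29. Dropping cow 4 gave 17 in GE, dropping cow 2 gave 22, dropping cow 9 gave 32 and dropping cow 6 gave 88. In ST, the unadjusted count was 33 when cow 5 was dropped, 62 when cow 4 was and 77 when cow 11 was, and the median stayed between -0.92 and -0.64. The share of all tested transcripts with such a p was not computed with a cow left out. These counts are therefore a description and no result about the members. In ST, 17774 to 18275 transcripts reached 1 TPM in P4high samples and 15397 to 18108 in P4low samples. In GE the P4high samples, with 17983 to 18472, lay inside the P4low range of 15639 to 19386. The median difference in ST was -0.87 for members under 1000 bases and -0.57 for longer ones, and 17 of the 19 members above 0 had at least 1000 bases. All tested transcripts under 1000 bases had a median of -0.34 in ST, against -0.01 for longer ones. The part of length and of the number of transcripts detected in these differences was not tested.

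**Figure D5:**
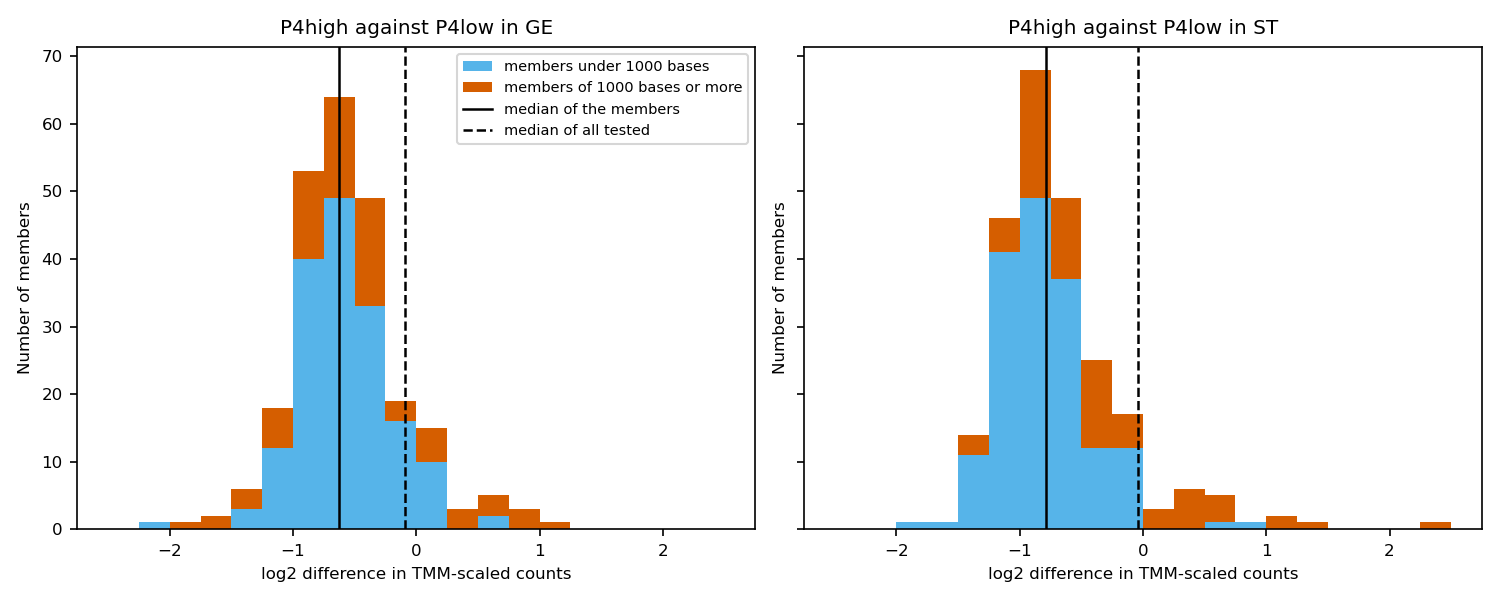
Number of members (y axis) by log2 difference in TMM-scaled counts between P4high and P4low cows (x axis) in GE (left, 3 against 7 samples) and ST (right, 3 against 9). Colours separate members under and from 1000 bases, the solid line is the median of the members and the dashed line that of all 27480 tested transcripts. The members lie mostly left of 0, the side that their choice by P4low levels favours, with medians of -0.63 and -0.79, and edgeR called none of them, while DESeq2 called 6 in GE and 9 in ST.

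For some members every P4high sample lay on one side of the P4low samples, and the choice by high P4low levels favours the lower side. In ST, the TPM of P4high samples was below all P4low samples for 19 members and above them for 3, against 0.375% and 3.45% of all tested transcripts. In GE it was below for 7 members and above for 6, against 0.771% and 4.01%. A tested transcript that was absent from a P4low sample could not lie below it, whereas every member was present in all samples. The shares of lower transcripts therefore do not compare like with like, and nothing is read from them. The 3 higher ones in ST were ENSBTAT00000005660.6, ENSBTAT00000046011.4 and ENSBTAT00000019148.4.

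ENSBTAT00000005660.6 had the largest positive estimate in ST. Its P4high samples had 6441, 8168 and 10420 TPM and its P4low samples 129 to 4650 TPM, with a median of 801. The log2 difference was 2.34 ± 0.86 (SE), with an adjusted p of 0.334 in edgeR's test. In GE its samples had 560, 729 and 1283 TPM in P4high cows, inside the P4low range of 108 to 2853 TPM. Only cow 8 set the upper end of that range, and the next P4low sample in GE had 572 TPM.

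The 2 members with the smallest p in ST were named after their values were seen. ENSBTAT00000034695.4 (1691 bases) had 1174, 2501 and 3163 TPM in P4high cows and 612 to 1369 TPM (median 842) in P4low cows, so that the groups overlapped by 1 P4high sample. Its log2 difference was 1.03 ± 0.25 (SE), with an adjusted p of 0.0992 in edgeR's test and 0.00449 in DESeq2. ENSBTAT00000046011.4 (2634 bases, the longest member) had 2360, 3669 and 4616 TPM against 417 to 1618 TPM (median 1341), without overlap. Its log2 difference was 1.33 ± 0.32 (SE), with an adjusted p of 0.102 in edgeR's test and 0.00811 in DESeq2. In GE, both had smaller estimates, 0.38 ± 0.26 and 0.65 ± 0.34 (SE).

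The most negative estimate in GE and in ST belonged to ENSBTAT00000020080.6. It had 231, 274 and 441 TPM in GE of P4high cows, against 372 to 2521 TPM in P4low cows, a log2 difference of -2.24 ± 0.94 (SE) with an adjusted p of 0.474 in edgeR's test. Without cow 13 this difference was -1.49. In ST it had 1401, 1549 and 2459 TPM against 1493 to 9741 TPM, a log2 difference of -1.80 ± 0.89 (SE) with an adjusted p of 0.471. The groups overlapped in both cell types. The largest positive estimate in GE was that of ENSBTAT00000023087.3 (1146 bases), at 1.17 ± 0.50 (SE) with an adjusted p of 0.479. Its GE samples had 3337, 3501 and 4720 TPM in P4high cows and 448 to 2089 TPM in P4low cows, without overlap.

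The 11 members with lengths of mitochondrial genes showed no called difference either. Their median log2 difference was -0.86 in GE and -0.55 in ST, with smallest adjusted p of 0.453 and 0.38 in edgeR's test. On the log2(TPM + 1) scale the medians were smaller, at -0.44 in GE and -0.18 in ST. All 11 were below 0 in both cell types on the count scale, and 10 in GE and 9 in ST on the TPM scale.

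LE allowed a weaker comparison, of the 1 P4high sample with 6 P4low samples, whose spread is assumed to be that of the other groups. No member was called by edgeR or by DESeq2, against 0.138% and 1.89% of all tested transcripts, and 12 had an unadjusted p under 0.05, against 6.24%. The median log2 difference over members was 0.04, with 110 below 0, and that over all tested transcripts was -0.22. On the log2(TPM + 1) scale the direction turned, to a median of -0.09 over members with 158 below 0, where all tested transcripts had -0.14. ENSBTAT00000014476.4 had the largest estimate, 2.74 ± 0.99 (SE), with an adjusted p of 0.564 in edgeR's test: the P4high sample had 3763 TPM and the P4low samples 270 to 1554. ENSBTAT00000001948.6 (1904 bases) had the most negative one, -2.08 ± 0.76 (SE), with an adjusted p of 0.58, at 256 TPM against 624 to 2370.

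The P4 differences in GE and ST were compared by an interaction term with the cow as a block. No member was called by edgeR or DESeq2, against 0% and 0.338% of all tested transcripts, and 3 members had an unadjusted p under 0.05, against 3.21%. The median difference between the estimates (GE minus ST) was 0.13, and for single members it ran from -1.49 for ENSBTAT00000005660.6 to 1.63 for ENSBTAT00000014476.4, with a median SE of 0.45. A failed test does not show that the effects were alike.

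The ratio between GE and ST could be tested in P4high cows, whose means the rule did not use, on the 2 cows with both cell types and the spread of all samples. No member was called by edgeR, against 0.742% of all tested transcripts, and 27 had an unadjusted p under 0.05, against 18.3%. Of these, 6 were higher in GE, against 10% of all tested, and 21 in ST, against 8.33%. With DESeq2, 16 members were called, against 12.4%, 2 of them higher in GE, against 6.67%, and 14 in ST, against 5.76%. The smallest adjusted p in edgeR's test was 0.0707, for ENSBTAT00000020080.6, with a log2 difference of -2.66 ± 0.68 (SE), and the GE samples lay at 231 to 441 TPM and the ST samples at 1401 to 2459 TPM. ENSBTAT00000005660.6 had the most negative estimate, -3.13 ± 0.97 (SE), with an adjusted p of 0.114, and ENSBTAT00000014476.4 the largest positive one, 2.33 ± 0.90 (SE), with an adjusted p of 0.186. The most abundant member, ENSBTAT00000024387.5, had -1.34 ± 0.42 (SE) and an adjusted p of 0.119. In P4low cows, 15 members had GE and ST means over 2-fold apart, 13 higher in ST and 2 in GE, and for all 15 the estimate in P4high cows had the same sign.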

How the data were processed

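The authors quantified the reads with Salmon 1.1.0 against bovine cDNA and deposited, per sample, estimated counts without normalization, TPM (which Salmon computes from counts and effective lengths), and the length and effective length of each transcript, per the file headers. Libraries were made from amplified full-length cDNA. The members and lists were chosen with earlier results of these data known.

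Counts were rounded, and the 27480 transcripts that reached 10 counts in 3 or more samples entered edgeR 4.0.16 (TMM, quasi-likelihood, Benjamini-Hochberg adjusted p at most 0.05 over all of them), limma 3.58.1 and DESeq2 1.42.0 serving as alternatives, in R 4.3.3. P4 effects came from 1 mean for each group of cell type and P4, and the interaction and GE against ST from one that also held the cow as a block. TPM tests used log2(TPM + 1). Same-cow samples came from the same animal: the correlation of the members' deviations from the group means was 0.45 (median over 21 same-cow pairs), and -0.03 between cows. P-values of the P4 effects rest on the spread within groups pooled over all 29 samples, with same-cow samples taken as independent. Those of the interaction and of GE against ST rest on the spread left after the cow block. The design assumed gene symbols, and transcripts were used instead. Named members are the 4 highest, the extremes of ratio and spread (2 each) and of each contrast. The part of the spread shared by a cow and the values without single cows given for named members were added after seeing the data. The tests were also run on simulated counts without cell type differences and without a spread shared by a cow, and no result here rests on that run. Tables and figures used matplotlib 3.10.9, pandas 2.3.3 and numpy 2.4.6 in Python 3.11.15.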

Additional observations from a re-analysis of the deposited data

Results flagged for a closer look

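Within groups of 6, 7 or 9 P4low samples, Dixon's gap test at the 95% level was applied to 21 named members. It was also applied to the shares of the set and to that of the length-matched group, 72 group tests in all. In these, 10 values stood apart, several of them from the same sample. Chance gives about 1 in 20 groups for values that were not chosen, but most of these members were named for extremes in the same samples, so that this rate is no reference for them. In LE, cow 13 stood apart with 9632 TPM of ENSBTAT00000024387.5 (next 5623), 6738 TPM of ENSBTAT00000004562.3 (next 834) and 5615 TPM of ENSBTAT00000020080.6 (next 1674). In GE, cow 13 stood apart with 863 TPM of ENSBTAT00000012920.3 (next 528). In GE, cow 11 stood apart with 15697 TPM of ENSBTAT00000060566.1 (next 7203), 10180 TPM of ENSBTAT00000060549.1 (next 5070) and 7.64% of TPM in the 11 length-matched members (next 3.92%). In GE, cow 8 stood apart with 3107 TPM of ENSBTAT00000007324.5 (next 1616) and 2853 TPM of ENSBTAT00000005660.6 (next 572), and cow 10 with 6206 TPM of ENSBTAT00000014476.4 (next 1516).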

How the results depend on the processing

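The number of members was 466 with a mean limit of 250 TPM and 104 with 1000 TPM. Other floors, other ratios and the median in place of the mean gave 217 to 242, and leaving out each cow gave 231 to 243. On TMM-scaled CPM in place of TPM, the share was 19.9% in LE, 17.7% in GE and 22.4% in ST, and the median SD within groups was 0.59. Calls of members changed from 0 to 6 in GE, 9 in ST and 16 for GE against ST with DESeq2, to 1 in ST and 6 for GE against ST with limma on log2(TPM + 1), and to 4 for GE against ST with no replicate block. A voom fit in limma that took the cow as a replicate block called 0 members in GE, ST and LE, and the block changed no other call. Leaving out each cow gave 0 to 1 calls in ST (1 without cow 9) and 0 to 1 for GE against ST (1 without cow 8 and 1 without cow 13), and 0 in the other contrasts. It moved the shares to 35.8 to 38% in LE, 31.9 to 34.9% in GE and 40.4 to 42% in ST, the median ratio to 1.34 to 1.43 and the median SD to 0.42 to 0.46. The fit of GE samples alone gave 29 members with an unadjusted p under 0.05. Shares of all tested transcripts were computed for the main edgeR fit and DESeq2 only. The counts of members under the other settings are therefore a description and no result about the members. No member named for a contrast changed the sign of that estimate under any of these settings. Of 726 values under alternatives, 679 were kept, 38 moved and 9 passed the threshold newly. Counts were kept within a fixed factor of the main value, and medians, shares, ratios and SDs within a set spread. Estimates of named members were kept if their sign and their side of the threshold stayed. Where a value moved, the cause was not tested. Depth was high for the members, whose lowest estimated count in a sample was 217 and whose median was 10279.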
